A study of Mus musculus with 5 samples.

Results

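The clustered histone genes are the mouse histone genes that lie together in 4 groups on chromosomes 13, 3, 11 and 6. They were taken here as every gene symbol in the count tables that begins with Hist1h, Hist2h, Hist3h or Hist4h. This gave 67 of the 32285 genes listed, of which 6 encode the linker histone H1, 18 encode H2A, 18 encode H2B, 12 encode H3 and 13 encode H4. The largest group, Hist1, spans chr13:21715763-23934851 (GRCm38) and holds 54 of them. The group Hist2 on chromosome 3 holds 10, Hist3 on chromosome 11 holds 2, and Hist4 on chromosome 6 holds 1. A member was called measured when it reached 1 CPM (UMIs per 1000000 UMIs of the library's kept cells) in any library. This held for 46 members, namely 5 of H1, 11 each of H2A, H2B and H3, and 8 of H4. Of the other 21, 2 had no UMI in any library (Hist1h4m and Hist1h2ba). The lowest maximum among measured members was 1.09 CPM (Hist1h3c), and the highest among the others was 0.982 CPM (Hist1h2bp).

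Histone proteins package DNA. Pairs of H2A, H2B, H3 and H4 form the core of the nucleosome, and H1 binds the linker DNA where it enters and leaves that core. Most clustered histone genes are replication-dependent: they are transcribed in S phase, when new DNA has to be packaged, and their mRNAs end in a conserved stem-loop bound by the stem-loop binding protein Slbp instead of a poly(A) tail. Poly(A) forms of some of these genes are known from cells that have left the cell cycle. The libraries studied here were primed on poly(A), so a level below counts the poly(A)-primed molecules of a gene and not all of its mRNA. UMIs are not divided by transcript length, so levels are compared between libraries and cells for each gene, and genes only by their shares of UMIs.

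Droplet RNA-seq was run on 3T3-L1 cells, an established clonal line of mouse preadipocytes that form fat cells when induced. The 5 groups were untreated cells on day 0 (confluent preadipocytes before induction), untreated cells on day 3 and day 6, and cells on day 3 and day 6 given 10 µg/mL P-G3, a positively charged PAMAM polymer, from the start of induction. All day 3 and day 6 cultures had been induced with dexamethasone, insulin and isobutylmethylxanthine and then kept in insulin; day 0 cells had not been induced, so time, induction and medium cannot be told apart. Each group is 1 library, so no difference between groups has a replicate check, and every interval given below is a 95% interval for counting error only.

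The libraries held 2468 to 3893 kept cells and 88432894 to 179221992 UMIs in them. Pairs of libraries shared 4 to 7 cell barcodes. The summed level of 20 adipocyte markers was 730.1 CPM on day 0 and 14171 to 56299 CPM in the other libraries. Markers of macrophages, endothelium and epithelium summed to at most 6.01, 1.36 and 16.01 CPM in any library. Median UMIs per kept cell ran from 47503 on day 0 to 16657 on day 6 with P-G3. Against untreated cells of the same day, the median log2 ratio of all genes with at least 1 CPM was -0.26 for P-G3 on day 3 and -0.40 on day 6, so scalings that centre this median (TMM and median of ratios) raise every P-G3 ratio by 0.24 to 0.39. In the comparisons between days these scalings lower every ratio by at most 0.16. Histone type sums whose direction flips under them are named where they occur, and a member's ratio that is smaller than these shifts can change sign.

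The stem-loop is shown first because it decides how a histone mRNA normally ends. The histone stem-loop pattern, 16 letters long and searched on the transcript strand of the longest GENCODE vM21 transcript of each gene, was present in 43 of the 67 members and in 30 of 32091 other genes (0.0935%). Capitals mark the paired stem bases, and 5 flanking bases are given on each side where the transcript reaches that far.
Hist1h2ap: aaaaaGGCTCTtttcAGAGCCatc
Hist1h1e: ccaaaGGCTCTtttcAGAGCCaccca
Hist1h1c: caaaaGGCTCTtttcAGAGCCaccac
Hist2h2ac: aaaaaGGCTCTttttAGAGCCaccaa
Hist3h2a: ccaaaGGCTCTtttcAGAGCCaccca
Hist1h3e: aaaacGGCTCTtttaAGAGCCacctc
Hist1h4i: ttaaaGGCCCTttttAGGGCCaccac
Hist1h4h: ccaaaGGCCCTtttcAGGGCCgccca
The first 6 lines share their stem letters, which were found in 3 forms of the loop in 25, 6 and 1 members of H1, H2A, H2B and H3 and in no H4 member. The H4 members with a match had other stems, of which the form of Hist1h4h was found in 7, that of Hist1h4i in 2 and another in 2. Members differed in where the annotated transcript ends. In 12 measured members it ended within 100 nt of the stem-loop; Hist1h2ap, whose stem-loop lies at chr13:21833029-21833044 on the minus strand, ended 3 nt after it. In 20 it ran more than 100 nt further, by 840 nt in Hist1h1c, 1153 nt in Hist1h1e and 1643 nt in Hist3h2a. The other 14 had no match in their longest transcript, and 7 of these are annotated only as far as the stop codon, so a missing match says nothing of the gene.

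The sum over all members was lower in each later untreated library. It stood at 1257 CPM on day 0 (95% interval 1251 to 1262), 1057 CPM on day 3, 433 CPM on day 6, 1034 CPM on day 3 with P-G3 and 296 CPM on day 6 with P-G3. The step from day 0 to day 3 was small, and that from day 3 to day 6 large. The log2 ratio was -0.25 for day 3 over day 0 (-0.26 to -0.24), -1.29 for day 6 over day 3 and -1.54 for day 6 over day 0. A few members carried most of the sum: 8 members held 90% of histone UMIs on day 0, and 10 to 13 in the other libraries. Without the largest of them, Hist1h2ap and Hist1h1b (left out after their values were seen), the sum was higher on day 3 than on day 0, with a log2 ratio of 0.43, and day 6 over day 0 was -0.27 in place of -1.54.

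Histone types followed different courses. H2A was lower at each step, from 628 CPM on day 0 to 361 CPM on day 3 and 93.1 CPM on day 6. H1 was level from day 0 to day 3, at 536 CPM on both, and stood at 211 CPM on day 6. H2B was the only type that was higher on day 6 than on day 0 by more than its counting interval under each of the 3 scalings, at 46.4 CPM on day 0, 89.6 CPM on day 3 and 89.3 CPM on day 6. H4 went from 22.6 to 42.5 CPM by day 3 and back to 23.7 CPM on day 6, a difference from day 0 that changed sign with the scaling. H3 had 24.2, 28.4 and 15.8 CPM on the same days. As a share of all histone UMIs, H2A went from 49.9% on day 0 to 21.5% on day 6 and H2B from 3.69% to 20.6%.

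**Figure D1:**
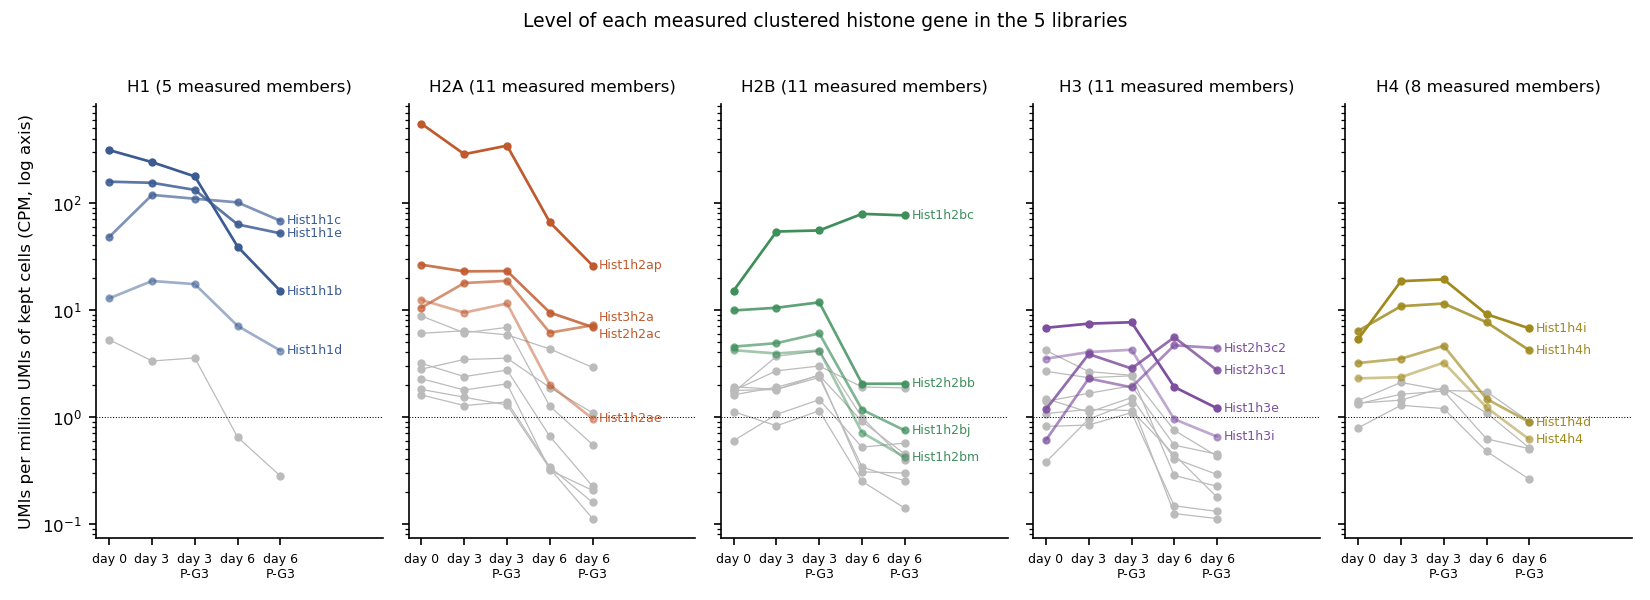
CPM (log axis) of the 46 measured members in the 5 libraries, 1 panel per histone type; points are libraries, lines join the same gene and are no time course between P-G3 and untreated, coloured lines mark the 4 members of each type with the highest maximum, grey the rest, and the dotted line is 1 CPM. Most lines drop on day 6, while Hist1h2bc, Hist1h1c, Hist2h3c1 and Hist2h3c2 are at least 2-fold higher on untreated day 6 than on day 0, and Hist1h4i, Hist1h4h, Hist2h4 and Hist1h2be are higher by less (Hist1h2be not under the other scalings).

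A ratio was taken where a gene reached 1 CPM in one of the libraries compared, so a gene that passed through one library only is high there by this choice. On day 3 against day 0, 6 of 44 such members were 2-fold higher or more, against 9.29% of all genes tested, and 0 were at least 2-fold lower, against 5.77%. The 6 were Hist1h1c, Hist1h2bc, Hist1h2bh, Hist2h3c1, Hist2h3c2 and Hist1h4i. In all, 27 of the 44 lay above a ratio of 1, but only 21 under TMM and 18 under median-of-ratios scaling. The median log2 ratio of the 44 members was 0.10 and that of all genes tested 0.11, so at their median the members stood level with other genes. Between day 6 and day 3, 32 of 43 members were at least 2-fold lower, against 8.77% of all genes, and 1 (Hist2h3c2) was at least 2-fold higher, against 8.96%. The median log2 ratio over these 43 members was -1.44, and that of all genes tested was 0.03. Between day 6 and day 0, 26 of 42 were at least 2-fold lower, against 13.7% of all genes, and 4 were at least 2-fold higher, against 19.2%. Those 4 were Hist1h2bc, Hist2h3c1, Hist2h3c2 and Hist1h1c; under either other scaling Hist1h1c dropped just under 2-fold and 3 were left. Of the measured members 14 had their highest level on day 0, and 6 on day 3 and 3 on day 6 without P-G3. The remaining 23 were highest on day 3 with P-G3. The same shares over all genes were not taken. The largest member log2 ratio of P-G3 over untreated on day 3 was 0.51, so the order of the day 3 libraries rests on small differences. The 15 measured members not named with values in every library had maxima from 1.17 CPM (Hist2h3b) to 4.61 CPM (Hist1h4d).

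**Figure D2:**
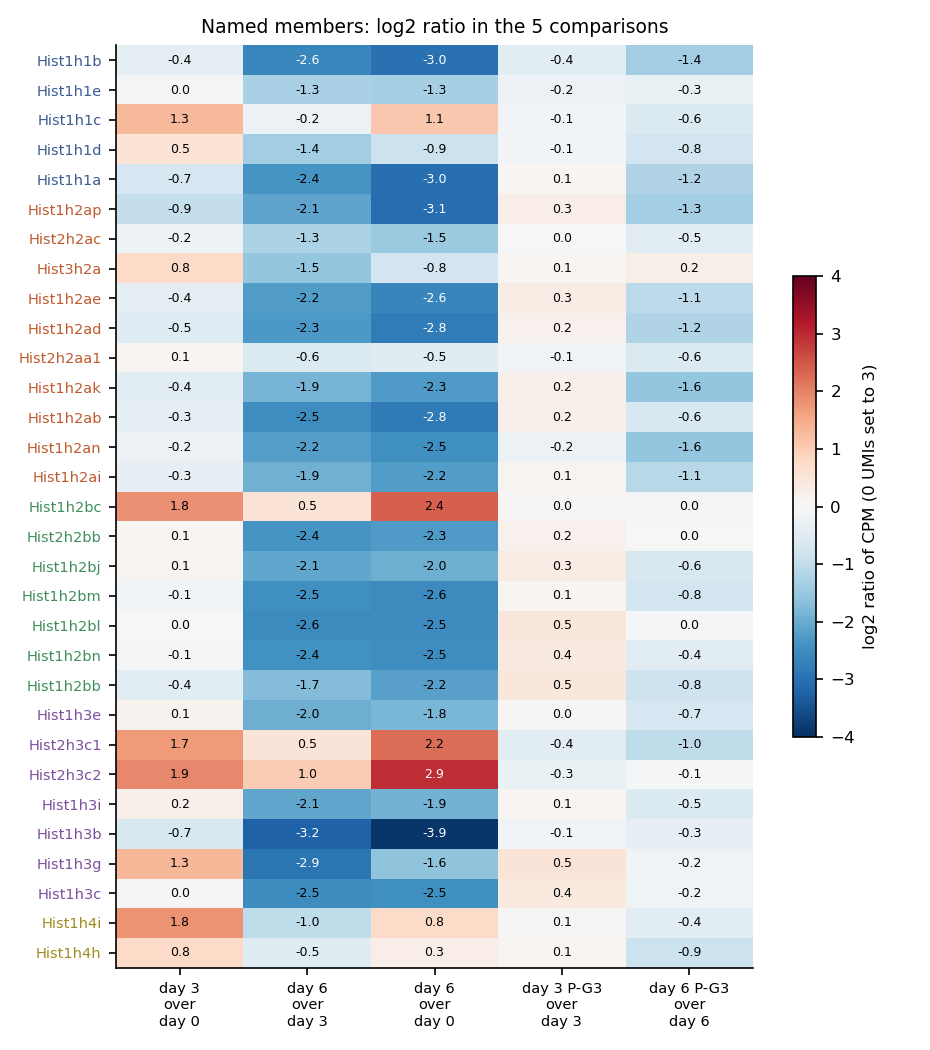
Log2 ratio of CPM for the 31 named members (rows, name colour by histone type) in the 5 comparisons (columns); red is higher and blue lower in the first-named library, and 0 UMIs were set to 3. The day 6 over day 3 column is blue for all rows except Hist1h2bc, Hist2h3c1 and Hist2h3c2, and the day 3 P-G3 column holds no ratio of 2-fold or more.

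Among the linker histones, Hist1h1b had the lowest day 6 ratios of the abundant H1 genes. It had 312 CPM on day 0 (309 to 315), 241 CPM on day 3, 177 CPM on day 3 with P-G3, 39.0 CPM on day 6 and 15.0 CPM on day 6 with P-G3. Each library in this order was lower than the one before it. Hist1h1e had 158, 154, 132, 62.9 and 52.0 CPM in the same order, so that it was near level until day 3, and its log2 ratio of day 6 over day 0 was -1.33. Hist1h1c went the other way, with 48.1 CPM on day 0 (47.0 to 49.2), 119 CPM on day 3, 109 CPM on day 3 with P-G3, 101 CPM on day 6 and 68.0 CPM on day 6 with P-G3. All later libraries lay above day 0. Its share of H1 UMIs went from 8.97% on day 0 to 48.0% on day 6, while that of Hist1h1b went from 58.2% to 18.5%. Hist1h1d had 12.8, 18.6, 17.4, 7.08 and 4.16 CPM. Hist1h1a was the scarcest measured H1 gene, at 5.25, 3.33, 3.55, 0.645 and 0.279 CPM.

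The promoters of the 3 most abundant H1 genes are printed because these genes share upstream letters while their levels took different courses. Each stretch is the 130 bases before the RefSeq start (GRCm38.p6), on the gene's strand, with CCAAT, the H1 box AAACACA and TATAA in capitals on either strand.
Hist1h1b: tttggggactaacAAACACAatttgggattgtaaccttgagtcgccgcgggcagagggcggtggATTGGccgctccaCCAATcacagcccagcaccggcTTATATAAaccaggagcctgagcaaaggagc
Hist1h1e: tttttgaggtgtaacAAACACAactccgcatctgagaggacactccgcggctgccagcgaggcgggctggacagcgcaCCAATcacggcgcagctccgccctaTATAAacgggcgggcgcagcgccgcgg
Hist1h1c: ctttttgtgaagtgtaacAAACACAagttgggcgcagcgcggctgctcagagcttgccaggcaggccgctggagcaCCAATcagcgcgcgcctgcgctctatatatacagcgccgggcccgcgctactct
They lie at chr13:21780626-21780755 (minus strand), chr13:23622559-23622688 (minus strand) and chr13:23738677-23738806 (plus strand). The H1 box AAACACA was found in 3 of the 4 measured H1 genes with a matched promoter, in 1 H2A and in 1 H2B gene, and in 2.98% of all 32851 promoters over the same 130 bases. CCAAT was found in 33 of the 41 measured members with a promoter, against 22.4% of all promoters, and TATAA in 19, against 12.7%. The octamer ATTTGCAT was found in 8, of which 4 were H2A and 4 H2B genes, against 0.868%. All letters were searched on both strands, and a match is a match of letters only.

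Most H2A UMIs came from Hist1h2ap, which held 87.6% of them on day 0 and 70.8% on day 6. It had 550.1 CPM on day 0 (546 to 554), 286 CPM on day 3, 343 CPM on day 3 with P-G3, 65.9 CPM on day 6 and 26.0 CPM on day 6 with P-G3. Day 0 was highest, and day 3 was higher with P-G3 than without. All 90-nt windows in the last 300 nt of its transcript also occur in another gene, for the most part in Hist1h2ao, so the counts of this gene cannot be separated with certainty from those of its near copies. The same holds for Hist1h1e, whose end overlaps Hist1h2be, for Hist1h3e with Hist1h3f, and for Hist2h2aa1 with Hist2h2aa2. Hist2h2ac had 26.4, 22.9, 23.1, 9.43 and 6.90 CPM, in the order day 0, day 3, day 3 with P-G3, day 6 and day 6 with P-G3, and no window of its last 300 nt is shared. Hist1h2ae (12.4, 9.42, 11.5, 1.99 and 0.959 CPM), like Hist1h2ad (8.75, 6.10, 6.85, 1.26 and 0.549 CPM), was more than 4-fold lower on day 6 than on day 0. Hist2h2aa1 changed least in this type, at 6.04, 6.37, 5.84, 4.31 and 2.89 CPM. The less abundant Hist1h2ak, Hist1h2ab, Hist1h2an and Hist1h2ai had 1.60 to 3.16 CPM on day 0 and 0.317 to 0.656 CPM on day 6. Hist3h2a, the one measured gene of the group on chromosome 11, took another course. It had 10.5 CPM on day 0 (9.99 to 11.0), 17.8 CPM on day 3, 18.7 CPM on day 3 with P-G3, 6.12 CPM on day 6 and 7.18 CPM on day 6 with P-G3. Both day 3 libraries were above day 0 and both day 6 libraries below it.

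The H2B sum rested on Hist1h2bc, which held 32.7% of H2B UMIs on day 0 and 88.5% on day 6. It had 15.2 CPM on day 0 (14.6 to 15.8), 54.0 CPM on day 3, 55.3 CPM on day 3 with P-G3, 79.0 CPM on day 6 and 76.5 CPM on day 6 with P-G3. No other measured H2B gene was highest on day 6. Hist2h2bb had 9.87, 10.5, 11.8, 2.04 and 2.04 CPM, and Hist1h2bj had 4.53, 4.88, 6.03, 1.16 and 0.745 CPM. Hist1h2bm, Hist1h2bl, Hist1h2bn and Hist1h2bb likewise stood at 1.12 to 4.20 CPM on day 0 and 0.249 to 0.712 CPM on day 6. The longest transcript of Hist1h2bc is annotated 1156 nt long without a stem-loop match, and none of the windows in its last 300 nt is shared with another gene.

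Of the 11 measured H3 genes, Hist2h3c1 and Hist2h3c2 on chromosome 3 took another course than the rest. Hist1h3e (6.79, 7.43, 7.66, 1.90 and 1.20 CPM), Hist1h3i (3.49, 4.03, 4.23, 0.950 and 0.652 CPM) and Hist1h3b (4.17, 2.65, 2.44, 0.283 and 0.223 CPM) were lower on day 6 than on day 0. The log2 ratio of Hist1h3b, -3.88 (-4.52 to -3.31), was the lowest of any member tested in that comparison. Hist1h3g had 0.378, 0.952, 1.36, 0.124 and 0.112 CPM, and Hist1h3c had 0.813, 0.837, 1.09, 0.147 and 0.130 CPM. The third measured H3 gene on chromosome 3, Hist2h3b, was also lower on day 6 than on day 0, with 1.07, 1.17, 1.14, 0.441 and 0.177 CPM. Hist2h3c2 had 0.605 CPM on day 0 (0.490 to 0.739), 2.28 CPM on day 3, 1.89 CPM on day 3 with P-G3, 4.66 CPM on day 6 and 4.39 CPM on day 6 with P-G3. Hist2h3c1 had 1.17, 3.86, 2.83, 5.54 and 2.72 CPM. Both were highest on day 6 untreated and lowest on day 0. Their transcripts share long stretches with each other but not in the last 300 nt.

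The leading H4 genes were highest on day 3. Hist1h4i had 5.32 CPM on day 0 (4.97 to 5.70), 18.6 CPM on day 3, 19.3 CPM on day 3 with P-G3, 9.10 CPM on day 6 and 6.71 CPM on day 6 with P-G3. Hist1h4h had 6.36, 10.8, 11.5, 7.66 and 4.19 CPM. All 8 measured H4 members lay above a ratio of 1 on day 3 over day 0, with log2 ratios from 0.04 (Hist4h4) to 1.80 (Hist1h4i), but Hist4h4 and Hist1h4c turned negative under either other scaling and Hist1h4d under median of ratios. All 8 lay below 1 on day 6 over day 3, with a median of -0.98.

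To set these levels against the cell cycle, cells with at least 10000 UMIs were placed in classes by the share of their UMIs from 48 G2/M genes and from 38 S-phase genes; no clustered histone gene was in either list. G2M-high cells lay at or above the 85th percentile of day 0 cells on the G2/M share. S-high cells did so on the S share only, and cycle-low cells lay below the day 0 median on both. These are ranges of a score and not cell types: of the 478 G2M-high cells on day 0, 169 had a score within 10% of a limit. The median adipocyte marker level over G2M-high cells was 732 CPM on day 0 and 37894 CPM on day 6, against 575 and 40423 CPM over cycle-low cells. G2M-high cells made up 15.0% of cells on day 0, 20.9% on day 3, 24.2% on day 3 with P-G3, 2.40% on day 6 and 2.02% on day 6 with P-G3. Cycle-low cells made up 42.9%, 62.9%, 59.6%, 92.3% and 93.4%. On day 6 the G2M-high class held only 37 cells untreated and 38 with P-G3, and the S-high class 29 and 20.

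Summed histone levels were far higher in cycling classes in every library. G2M-high cells had 2901 CPM on day 0, 2497 CPM on day 3, 2241 CPM on day 3 with P-G3, 2642 CPM on day 6 and 1929 CPM on day 6 with P-G3. Cycle-low cells had 183, 297, 299, 298 and 227 CPM. The ranges of these levels, each pooled over the cells of a class, do not overlap, and overlap between single cells was not examined. The log2 ratio of G2M-high over cycle-low was 3.24 ± 0.43 (SD, n = 5 libraries) and was positive in 5 of 5 libraries, with p = 0.0625 in an exact two-sided sign-flip permutation test over libraries, the smallest p that 5 libraries allow. For S-high over cycle-low it was 2.99 ± 0.62 (SD, n = 5), from 3.80 on day 0 to 2.14 on day 6 with P-G3, with the same exact permutation p = 0.0625. On day 0, 46 of 49 members with at least 1 CPM in one of the classes were 2-fold higher or more in G2M-high than in cycle-low cells, against 5.58% of all genes, and 0 were lower by that much, against 1.71%. The same count was 47 of 51 on day 3, against 5.73%, and 45 of 52 on day 3 with P-G3, against 5.48%, with 0 lower in both, against 3.03% and 2.81%. It was 45 of 52 on day 6, against 9.02%, with 2 lower, against 8.03%. On day 6 with P-G3 it was 40 of 44, against 9.65%, with 0 lower, against 6.31%. The median log2 ratio of members lay between 2.68 and 4.23 and that of all genes between -0.04 and 0.07.

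Day 6 ratios were nearer to 0 or positive within a class than over all cells, and the sign differed between classes; this split by class was added after the sums had been seen. For day 6 over day 0 the log2 ratio was -1.54 in all kept cells, -0.14 within G2M-high cells (-0.17 to -0.10) and 0.70 within cycle-low cells (0.67 to 0.74). For day 6 over day 3 it was -1.29 in all cells, 0.08 within G2M-high cells and 0.00 within cycle-low cells (-0.02 to 0.03). Within the S-high cells these ratios were -0.35 and -0.18. For day 3 over day 0, the ratios within G2M-high cells (-0.22) and S-high cells (-0.17) were about as large as that over all cells (-0.25), while cycle-low cells had 0.70. The share of G2M-high cells was higher on day 3 than on day 0, where the sum was lower, and both were lower on day 6. The S-high share was lower at each step, with 11.6% on day 0, 4.57% on day 3 and 1.88% on day 6. So was the share of cells in none of these classes, with 30.5%, 11.6% and 3.37%. These cells held 28.3% of histone UMIs on day 0. Cycle-low cells held 5.40% of histone UMIs on day 0 and 62.2% on day 6. Within cycle-low cells, 8 of 19 members were at least 2-fold higher on day 6 than on day 0, against 19.5% of all genes, and 3 were at least 2-fold lower, against 12.0%. On day 3 against day 0, 11 of 22 were at least 2-fold higher within these cells, against 10.2%, and 0 lower, against 6.13%. Within G2M-high cells, day 6 against day 0 gave 5 of 55 higher, against 18.2%, and 3 lower, against 12.3%. In cycle-low cells H2A had 67.5 CPM before induction against 30.8 CPM on day 6, while H2B went from 26.4 to 86.2 CPM and H1 from 74.6 to 147 CPM. In G2M-high cells the same types went from 1395 to 1127 CPM, from 96.2 to 136 CPM and from 1306 to 1246 CPM.

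**Figure D3:**
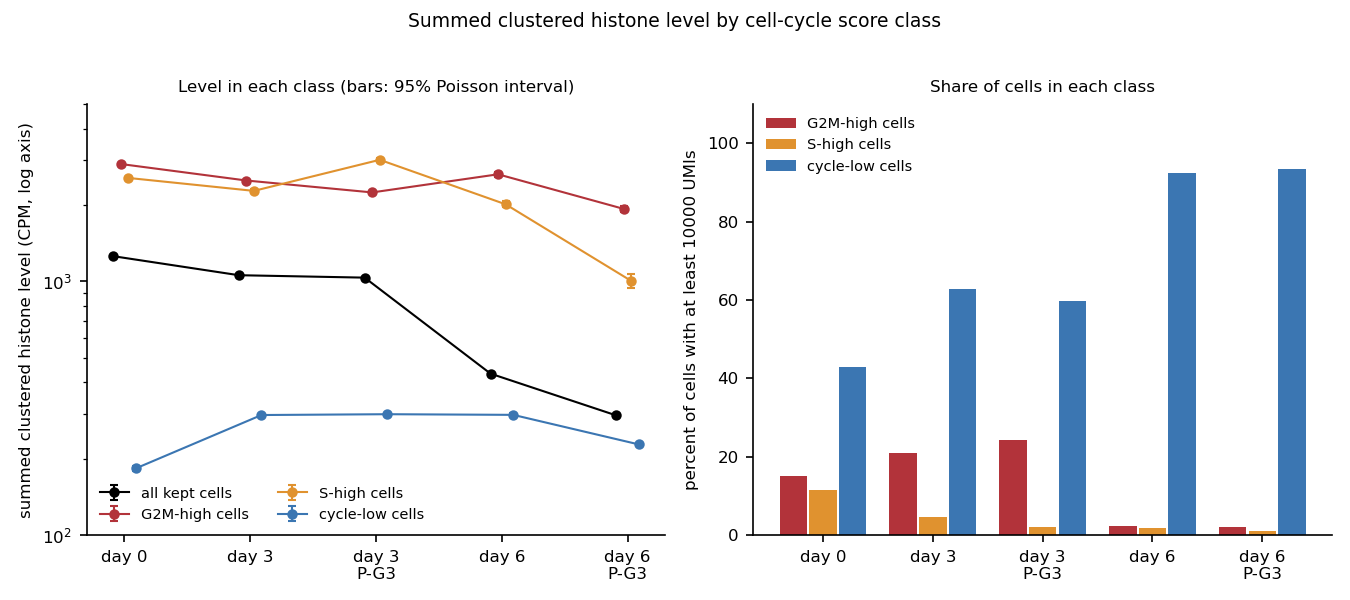
Left, summed clustered histone CPM (log axis) in all kept cells, G2M-high, S-high and cycle-low cells of each library, with 95% Poisson intervals mostly smaller than the points; right, percent of cells with at least 10000 UMIs in 3 of the classes. The level in all kept cells goes from 1257 to 296 CPM, and the cycle-low share rises from 42.9% to above 90%. The level pooled over G2M-high cells lies between 1929 and 2901 CPM.

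Members differed in how far they followed the cycle classes. Hist1h1b had 781 CPM in G2M-high and 18.4 CPM in cycle-low cells on day 0, and 624 against 4.12 CPM on day 6. Its log2 ratios ran from 5.02 to 7.24 over the 5 libraries. Hist1h2ap ran from 4.58 to 6.69 and Hist1h1a from 5.25 to 7.41. Hist1h1e (2.77 to 3.53) and Hist1h1c (1.06 to 2.35) also stood higher in G2M-high cells in every library, but by less. In cycle-low cells Hist1h1c had 20.7 CPM on day 0 and 93.6 CPM on day 6, and in G2M-high cells it had 105 and 195 CPM, so that it was higher on day 6 in both classes. The order of the extremes, Hist1h1b or Hist1h1a above Hist1h1e above Hist1h1c, was the same in each of the 5 libraries.

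A set of 4 measured members was not higher in G2M-high cells in all 5 libraries. Hist1h2bc had 18.4 CPM in G2M-high and 19.8 CPM in cycle-low cells on day 0, and 63.7 against 79.6 CPM on day 6. Its log2 ratio lay between -0.32 and -0.11 in the 5 libraries, and for S-high over cycle-low between -1.85 and -1.03. It was higher on day 6 in both classes, as day 6 over day 0 was 2.00 on the log2 scale within cycle-low cells (1.91 to 2.10) and 1.79 within G2M-high cells (1.54 to 2.04). Hist2h3c1 lay between -2.13 and -0.15. Hist2h3c2 lay between -1.27 and -0.23 except on day 6 with P-G3, where it was 1.32 on 27 UMIs. Hist3h2a was lower in G2M-high cells on day 0, at 9.42 against 15.7 CPM, but higher on day 3, at 20.9 against 18.3 CPM, and on day 3 with P-G3, at 22.7 against 18.8 CPM. On day 6 its ratios were 0.62 untreated and 0.49 with P-G3, with intervals that held 0. CCAAT, found in most member promoters, was absent from the 130 bases of Hist2h3c2 and present in those of Hist3h2a.
Hist3h2a: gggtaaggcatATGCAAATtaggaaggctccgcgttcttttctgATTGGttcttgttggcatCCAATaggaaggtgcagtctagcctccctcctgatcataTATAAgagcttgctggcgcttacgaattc
Hist2h3c2: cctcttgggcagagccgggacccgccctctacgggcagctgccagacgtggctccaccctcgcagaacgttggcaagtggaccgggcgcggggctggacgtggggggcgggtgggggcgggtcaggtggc
Both are shown because they are members with another course. They lie at chr11:58954555-58954684 (plus strand) and chr3:96239128-96239257 (minus strand), with the CCAAT, octamer and TATAA letters in capitals where present.

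**Figure D4:**
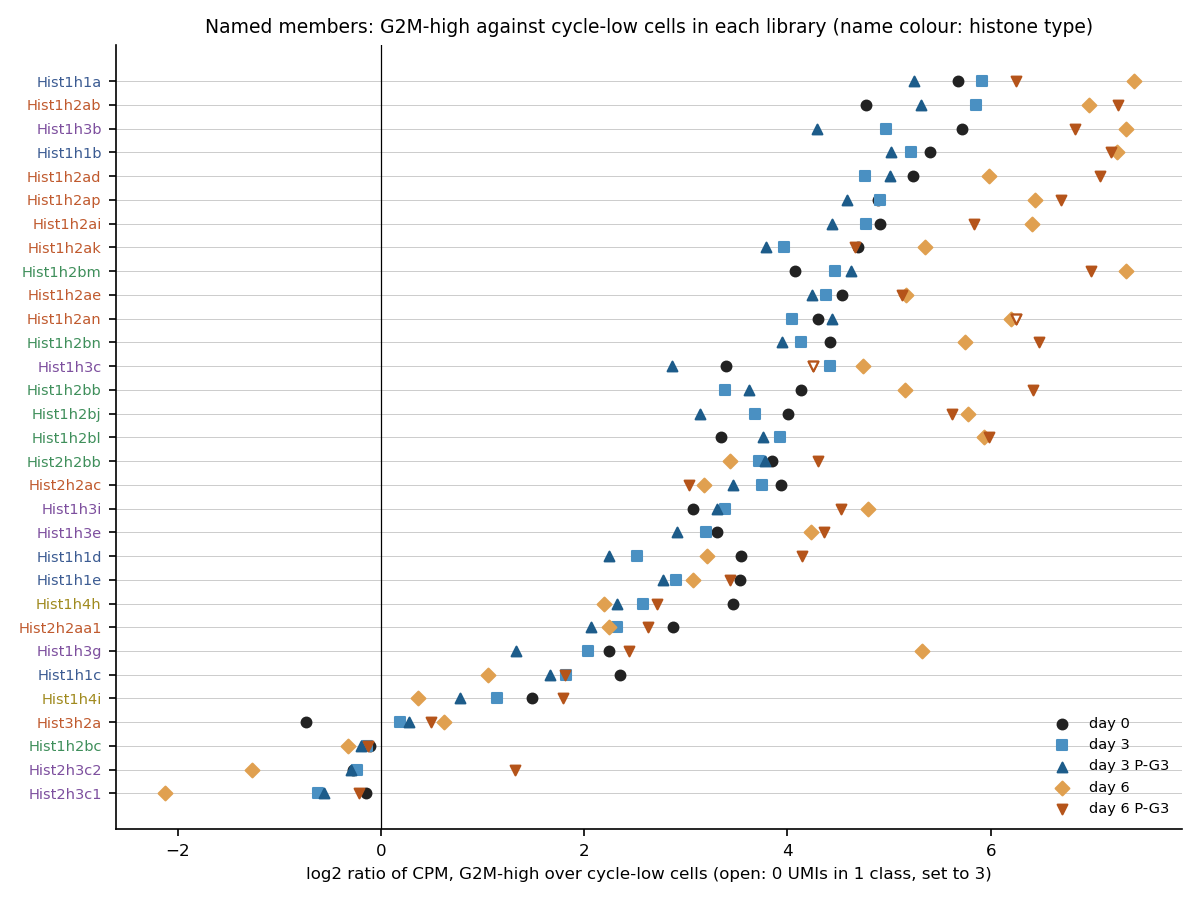
Log2 ratio of CPM in G2M-high over cycle-low cells (x axis) for the 31 named members (y axis, name colour by histone type), with 1 symbol per library; open symbols had 0 UMIs in 1 class, set to 3. All points of 27 members lie to the right of 0, while those of Hist1h2bc and Hist2h3c1 lie to its left and those of Hist3h2a and Hist2h3c2 fall on both sides.

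Histone UMIs were spread unevenly over the cells. With each cell thinned to 10000 UMIs, the median cell had 3 histone UMIs on day 0, 4 on day 3 with or without P-G3, and 2 on day 6 with or without P-G3. The 90th percentile was 35, 29, 31, 8 and 6 UMIs in the order given before, and the tenth of cells with most histone UMIs held 40.6% to 47.2% of them in each library. Cells were ranked by these same UMIs, and the share that sampling alone would give was not taken. Hist1h2ap was seen in 57.2% of thinned cells on day 0 (78.6% unthinned) and in 12.9% on day 6 (23.3% unthinned). Hist1h2bc was seen in 10.9% on day 0 (28.0% unthinned) and 36.3% on day 6 (49.0% unthinned). Thinning left out 28 cells on day 0, 203 and 218 on day 3, and 927 and 1665 on day 6. The unthinned shares include these cells, so thinned and unthinned shares differ in cells as well as in depth. No cell type that should lack histone RNA was present, so the part of free RNA in these shares was not tested.

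Among cycle-low cells, members also differed between cells with high and low adipocyte marker levels. Cells were ranked by the share of UMIs from the adipocyte markers and divided into 3 groups of equal size, and the highest was compared with the lowest. On day 3 the summed histone level was higher in marker-high cells, at 334 against 248 CPM untreated (log2 ratio 0.43, 0.38 to 0.48) and 286 against 262 CPM with P-G3 (0.13, 0.08 to 0.17). Of 46 members, 18 untreated and 17 with P-G3 had an interval above 0, and 1 and 2 had one below. The day 6 counts leaned the other way, with 3 above and 8 below of 45 untreated, and 3 above and 6 below of 44 with P-G3. The same counts over all genes were not made, so these are not read as a trait of the members. On day 6 the summed level differed less, at 280 against 276 CPM untreated and 228 against 237 CPM with P-G3, with log2 ratios of 0.02 and -0.06. Hist3h2a was lower in the marker-high cells of all 4 induced libraries. It had 11.1 against 26.4 CPM on day 3, 9.20 against 35.6 CPM on day 3 with P-G3, 2.23 against 13.8 CPM on day 6 and 3.21 against 14.7 CPM on day 6 with P-G3. Hist1h2bc was higher in them, at 73.4 against 33.4 CPM on day 3, 49.1 against 45.2 CPM on day 3 with P-G3, 85.5 against 50.9 CPM on day 6 and 82.8 against 69.5 CPM on day 6 with P-G3. Marker-high cells also had more UMIs, with medians of 66037 against 37090 on day 6 untreated. Their G2/M list level was higher too, at 831 against 557 CPM on day 3 and 903 against 520 CPM on day 3 with P-G3. On day 6 it was 656 against 551 CPM untreated and 704 against 610 CPM with P-G3. Their S list level was higher on day 3 with P-G3 only, at 438 against 360 CPM. The parts of depth and of the cell cycle in these differences were not tested.

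P-G3 was set against untreated cells of the same day. On day 3, 0 of the 46 members were at least 2-fold higher, against 0.263% of all genes, and 0 were at least 2-fold lower, against 4.26%. The median log2 ratio of members was 0.10 and that of all genes -0.26. With all genes divided into 20 bins by transcript length, the median was 0.10 in the shortest bin and -0.60 in the longest. The bins of the members had a median of 0.10 as well, so at their median the members stood level with genes of like length. Of the 46 members, 34 lay above a ratio of 1, and 41 under TMM and 43 under median-of-ratios scaling. The sum differed by -0.03 on the log2 scale (-0.04 to -0.02), which became 0.21 under TMM and 0.24 under median-of-ratios scaling. Types differed: H2A went from 361 to 422 CPM, H2B from 89.6 to 97.2 CPM and H4 from 42.5 to 46.2 CPM. Both other scalings raise every P-G3 ratio, so they could not reverse these higher values. The log2 ratios of H2B and H4 were both 0.12, near the 0.10 of the shortest length bin, and the part of length was not tested by type. H1 went from 536 to 439.7 CPM, a log2 ratio of -0.29 that shrank to -0.05 and -0.02 under the other scalings. Within H1, Hist1h1b was lower with P-G3 under all 3 scalings, at -0.44 (-0.47 to -0.42), while the lower values of Hist1h1e and Hist1h1c changed sign under both other scalings. Hist1h2ap had a log2 ratio of 0.26 (0.25 to 0.28). Within G2M-high cells the H1 ratio was -0.45 and the H2A ratio 0.14, and within cycle-low cells they were -0.17 and 0.27. The median log2 ratio of all genes was -0.24 within G2M-high and -0.28 within cycle-low cells, so the cycle-low H1 ratio lay above that of the median gene. Within the 73 and 155 S-high cells (P-G3 and untreated) the H1 ratio had the other sign, at 0.23 (0.19 to 0.28), with an H2A ratio of 0.61 and a sum of 0.41.

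On day 6, 0 of 24 members were at least 2-fold higher with P-G3, against 0.176% of all genes, and 6 were at least 2-fold lower, against 8.44%. The 6 were Hist1h1b, Hist1h2ap, Hist1h2ad, Hist1h2ae, Hist2h3c1 and Hist1h4c. Under TMM scaling 2 were left, and under median-of-ratios scaling 0. Members above a ratio of 1 numbered 2 of 24, and 6 under either other scaling. The sum went from 433 to 296 CPM, a log2 ratio of -0.55 (-0.57 to -0.53), and to -0.21 and -0.16 under TMM and median-of-ratios scaling. Hist1h2ap differed by -1.34 (-1.41 to -1.28) and Hist1h1b by -1.38 (-1.47 to -1.29), both with the same sign under each scaling. Hist1h2bc, at 79.0 against 76.5 CPM, had a log2 ratio of -0.05 that turned positive under the other scalings, as did the H2B sum. Within cycle-low cells the sum differed by -0.39 (-0.41 to -0.36), within the few G2M-high cells by -0.45 (-0.51 to -0.40), and within the 20 and 29 S-high cells by -1.01 (-1.10 to -0.91). The median log2 ratio of all genes was -0.40 within cycle-low cells, level with the histone sum there, and -0.23 within G2M-high cells. It was not taken for S-high cells. The median G2M-high cell had 45 histone UMIs with P-G3 and 199 untreated, at median totals of 66221 and 79779 UMIs. The ratio pooled over G2M-high cells thus does not stand for the typical cell, and its interval leaves out the spread between cells. Among all genes, P-G3 ratios moved with transcript length. The median on day 6 was 0.10 in the shortest of 20 length bins and -0.76 in the longest. The 24 members had a median log2 ratio of -0.69, against -0.40 for all genes, and the bins of the members had a median of 0.10. At their median the members thus lay below genes of like length. Beyond this and the next value, the part of length in the member ratios was not tested. With each member's length-bin median subtracted, the sum differed by -0.07 on day 3 and stayed within its counting interval on day 6.

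**Figure D5:**
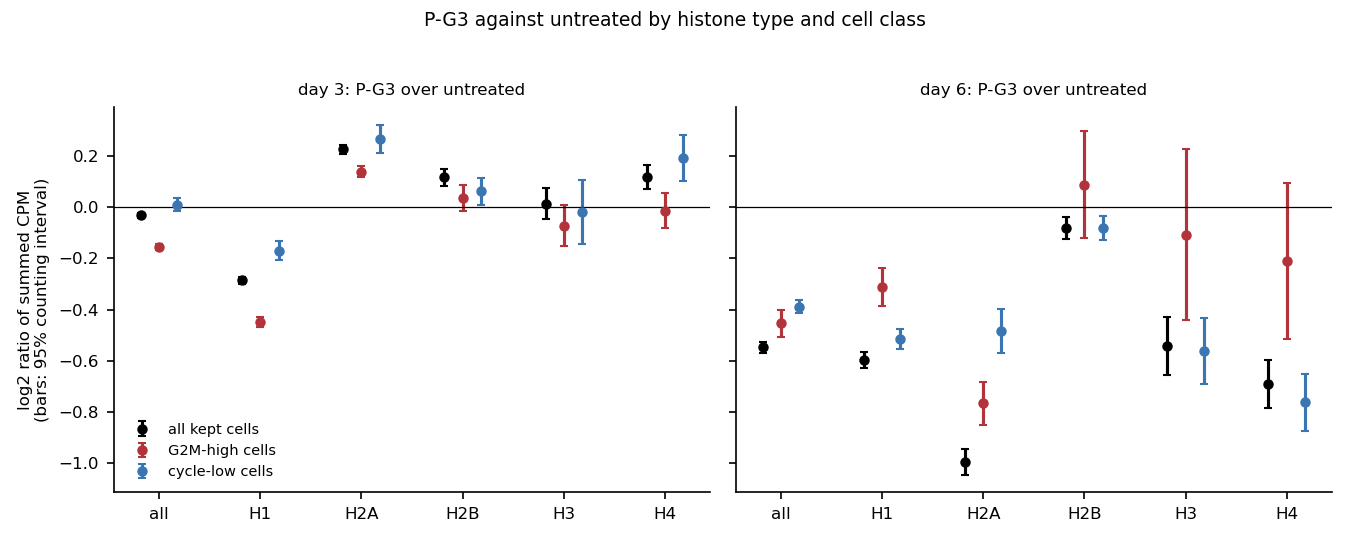
Log2 ratio of summed CPM, P-G3 over untreated, by histone type on day 3 (left) and day 6 (right), in all kept cells, G2M-high and cycle-low cells (S-high cells are not drawn); bars are 95% counting intervals. On day 3 H1 lies below 0 and H2A above 0 in all 3 sets of cells, and on day 6 all types except H2B lie below -0.5 in all kept cells.

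Genes that act on histone mRNA and protein were taken from 3 lists. Of 25 measured genes of histone transcription and 3′ end processing, 4 were at least 2-fold lower on day 6 than on day 0 and 0 higher, where 13.7% of all genes were lower and 19.2% higher by that much. Slbp, which binds the stem-loop, had 96.2, 67.4, 61.0, 34.5 and 34.7 CPM in the order day 0, day 3, day 3 with P-G3, day 6 and day 6 with P-G3. The other 3 were E2f1, a transcription factor of the G1/S transition, Eri1, an exonuclease that trims histone mRNA ends, and Casp8ap2, a protein of histone locus bodies. Of 24 histone chaperones, 10 were at least 2-fold lower and 0 higher. Chaf1b and Chaf1a, subunits of the chromatin assembly factor that works at replication forks, had 51.9 and 55.2 CPM on day 0 and 4.34 and 12.8 CPM on day 6. Asf1b, which hands H3 and H4 to assembly factors, had 43.9 and 11.6 CPM, and Mms22l, a replication fork protein, 22.1 and 4.79 CPM on the same days. Among 11 measured histone genes outside the clusters, again 4 were at least 2-fold lower and 0 higher. The lowest ratios among those with at least 20 CPM were those of Cenpa, the H3 of centromeres, with 59.2 and 18.1 CPM, and H2afz, an H2A variant made throughout the cycle, with 1233 and 571 CPM on these days. H1f0, the linker histone of non-dividing cells, named after its values were seen, had 94.7, 121, 125, 136 and 118 CPM. The S list summed to 2048 CPM on day 0 and 609 CPM on day 6, and the G2/M list to 2900.0 and 977 CPM.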

How the data were processed

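Molecule counts (UMIs) per gene and cell barcode, as deposited by the authors, were the only values used. Per the submitters' processing notes they were made with Cell Ranger 3.1.0 on GRCm38, whereas version 5.0.1 stands in the file headers. Which of these holds is unknown, and the annotation release is not given in the sources used here. The clustered histone genes, the gene lists and the comparisons were chosen with earlier results of these data known. Barcodes with at least 500 genes and at most 20% mitochondrial counts were kept, and doublets were not removed. Each library's counts were added up gene by gene across its kept cells and scaled to their total (CPM). A member was measured at 1 CPM in any library, and named where it reached 5 CPM in any library or differed 4-fold in any comparison it could be tested in. With 1 library per group no test between groups was made. Intervals are exact at 95% (Poisson for levels, conditional binomial for ratios, Clopper-Pearson for shares), and a level of 0 was set to 3 counts in ratios. Cell classes used cells with at least 10000 UMIs, and shares of cells were taken after thinning to 10000 UMIs. The counting code was tested on simulated data with 200 changed genes, in which all 4-fold changes passed 2-fold in each comparison. TMM factors came from edgeR 4.0.16 in R 4.3.3, and other steps used Python 3.11.15 with scipy 1.17.1. Stem-loops were read from GENCODE vM21 transcripts and promoters from RefSeq, where 61 of 67 members matched. Near-identical histone genes share reads, so counts of such genes are uncertain. The depth of each library is given with the results, and a count of 3 corresponded to 0.0167 to 0.0339 CPM.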

Additional observations from a re-analysis of the deposited data

Results flagged for a closer look

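The P-G3 ratio of 3 histone types had opposite signs on day 3 and day 6, which is given as values because each group has 1 library and the difference was not tested. The H2A sum had a log2 ratio of P-G3 over untreated of 0.23 on day 3 and -0.996 on day 6, a difference of 1.22. The H4 sum had 0.12 and -0.69, a difference of 0.81. The H2B sum had 0.12 and -0.08, a difference of 0.20, and its day 6 ratio became 0.26 under TMM and 0.31 under median-of-ratios scaling, so that its sign did not differ between days there.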

How the results depend on the processing

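No paired analysis was possible because each group has 1 library, and for the same reason no replicate could be left out. For the summed level, TMM and median-of-ratios scaling gave log2 ratios of -0.36 and -0.40 for day 3 over day 0, -1.69 and -1.70 for day 6 over day 0, and -0.21 and -0.16 for P-G3 on day 6. They reversed P-G3 on day 3, to 0.21 and 0.24, and TMM gave -1.33 for day 6 over day 3. Subtracting the length-bin median gave -0.32 for day 3 over day 0, -1.33 for day 6 over day 3, -1.60 for day 6 over day 0 and -0.073 for P-G3 on day 3. Without the 5% of cells with most UMIs the values were -1.43 for day 6 over day 3, -1.67 for day 6 over day 0 and -0.0057 for P-G3 on day 3. All deposited barcodes gave -1.56 for day 6 over day 0, and cells with at least 10000 UMIs gave -0.57 for P-G3 on day 6. Without Hist1h2ap and Hist1h1b, an alternative chosen after seeing the data, day 3 over day 0 reversed to 0.43, day 6 over day 3 was -0.70, day 6 over day 0 was -0.27, and P-G3 gave -0.047 on day 3 and -0.36 on day 6. Direction held in 32 of these 35 alternatives between libraries. The class ratios stayed positive in 40 of 40 alternatives. The exact permutation p for the mean over libraries was 0.0625 under each. That is the smallest p that 5 libraries allow and is reached whenever all 5 ratios are positive, so it adds nothing to their signs.

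Counts of members past 2-fold moved as follows. For day 3 over day 0, 3 were higher with a 5 CPM minimum, and 1 was lower with at least 10 counts in place of a CPM minimum, with TMM and with median-of-ratios scaling. For day 6 over day 3, 0 were higher with a 5 CPM minimum, with 1 CPM added and with TMM, while 11 were lower with a 5 CPM minimum and 20 with 1 CPM added. For day 6 over day 0, 9 were lower with a 5 CPM minimum. For P-G3 on day 6, 3 were lower with a 5 CPM minimum, 15 with at least 10 counts, 2 with 1 CPM added, 2 with TMM and 0 with median-of-ratios scaling. Among all cells with at least 10000 UMIs, the ratio of adipocyte-marker-high over marker-low cells was -0.24 on day 6, a reversal, and -0.44 on day 6 with P-G3. Thinning to 5000 UMIs gave shares of cells with any histone UMI of 73.5% on day 0, 77.4% on day 3, 76.8% on day 3 with P-G3, 68.3% on day 6 and 60.9% on day 6 with P-G3. The small number of cycling cells on day 6 limits each value for those classes.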

Other observations

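Barcodes that did not pass the cell filter also held histone UMIs. They numbered 37 on day 0, 97 on day 3, 61 on day 3 with P-G3, 2814 on day 6 and 2173 on day 6 with P-G3. Their summed histone level was 604 CPM on day 0 (439 to 811) and 319 CPM on day 6 (302 to 336), against 1257 and 433 CPM in kept cells. On day 6 with P-G3 it was 176 CPM (162 to 191), against 296 CPM.

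The annotated 3′ end divided the histone UMIs differently over the libraries. Members whose transcript runs more than 100 nt past the stem-loop held 21.8% of histone UMIs on day 0, 35.5% on day 3 and 49.2% on day 6. Their summed level was 274, 375 and 213 CPM, so it was lower on day 6 than on day 0 although the share was higher. Members that end within 100 nt of the stem-loop held 49.3%, 33.2% and 21.4% (620, 351 and 92.8 CPM), most of which was Hist1h2ap. These shares describe annotated transcripts, and the ends used in these cells were not measured here.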
